A study of Mus musculus with 29 samples.

Results

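Endothelial cells (EC) and osteoblastic cells (OBC) sorted from wild-type (WT) mice were compared as 2 populations of the niche around blood stem cells. The comparison took 6 of the 29 samples of the series by their labels alone, 3 EC WT libraries (labelled 13, 14 and 15) and 3 OBC WT libraries (7, 8 and 9), and all 18194 genes of the deposited table. The niche part of the series holds 18 libraries of strain 129Ly5.1: EC, OBC and mesenchymal cells (MSC), each in 3 WT and 3 Wnt5a-haploinsufficient libraries, which carry a single functional copy of Wnt5a, a secreted WNT ligand. RNA of cells sorted by flow cytometry into lysis buffer was turned into barcoded, pooled cDNA whose molecules carry unique molecular identifiers (UMIs), so that a count is a number of molecules and not of reads. The sources used here do not give age, sex, the antigens of the sort, the number of cells per library or whether EC and OBC libraries came from the same animals. Nothing in them says that the libraries of a group are separate animals, so a p-value measures only the spread between these libraries, which may be technical.

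Endothelium lines the arterioles, capillaries and sinusoids of bone marrow, takes up circulating lipid and meets every blood cell that enters or leaves. Osteoblasts secrete the collagen of bone and the acidic glycoproteins that bind its mineral, and stromal cells of the same lineage release CXCL12, the chemokine that retains blood stem cells in the marrow. These roles are the reason that both populations are studied as niches, and the comparison shows how far their transcripts were separated in the sorted material.

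The EC WT libraries held 83254, 95216 and 117989 gene UMIs, and the OBC WT libraries held 26088, 29772 and 10635. In the shallowest, OBC WT 9, a gene at the detection floor of 3 UMIs stood at 273 CPM (UMIs scaled to a common library size), against 22.5 to 36.2 CPM in the EC WT libraries. The floor of OBC WT 7 and 8 was 141 and 127 CPM, so low levels were harder to detect in OBC WT than in EC WT. At an equal depth of 10635 UMIs, 4002 ± 353 genes were expected in an EC WT library and 3429 ± 138 in an OBC WT library (SD, n = 3). EC WT 14 stood apart in its content: haemoglobin genes made up 24.3% of its UMIs, against 1.9% and 2.57% in the other EC WT libraries and 3.42% to 6.47% in OBC WT.

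The labels were checked against defining markers. Cdh5, the cadherin of endothelial junctions, had 197, 139 and 315 UMIs in EC WT and 6, 7 and 8 in OBC WT. Of 12 osteoblastic markers used for the check, 11 had at most 8 UMIs in any EC WT library. The exception was Alpl, the tissue-nonspecific alkaline phosphatase, with 13, 5 and 19 UMIs there and 7, 3 and 0 in OBC WT. In OBC WT the matrix genes Col1a1, Col1a2, Ibsp and Spp1 were abundant. The lineage transcription factors were sparse: Runx2 had 0, 2 and 1 UMIs in OBC WT and Sp7 had 1 in each library, and both were at 0 in EC WT. Bglap, which encodes osteocalcin, had 20, 7 and 0 UMIs in OBC WT and 0, 2 and 4 in EC WT, and the osteocyte gene Dmp1 was at 0 in OBC WT. OBC WT libraries also held endothelial transcripts: Pecam1, the surface protein CD31, had 18, 9 and 11 UMIs, and Aqp1 had 26, 27 and 11. Alcam, whose protein is a common sort antigen for osteoblastic cells, was at 0 in all OBC WT libraries and had 0, 1 and 0 UMIs in EC WT.

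Of 1099 genes with enough UMIs to test, 228 were higher in EC WT (20.7%) and 171 were higher in OBC WT (15.6%), at an adjusted p under 0.05 in edgeR's quasi-likelihood test. These shares are the background for every list below, and a list's median log2 difference is read beside the 0.26 of all tested genes. A gene almost absent from a population could have enough UMIs to test only through libraries of other groups. Counts of called members among such genes are therefore partly set by the filter. The fitted log2 difference was over 2 in size for 129 of the genes higher in EC WT and 108 of those higher in OBC WT. The 3 EC WT and 3 OBC WT values did not overlap for 324 genes with EC higher (29.5%) and 187 with OBC higher (17%), 46.5% of those tested in all. Without EC WT 14 the counts were 258 and 222, without OBC WT 9 they were 200 and 211, and without OBC WT 8 they were 132 and 160. With plain library totals in place of the scaling factors the split was 306 to 140, and with no filter on low counts 374 to 163. With no filter only 82 of the 171 OBC calls were kept, and all 228 EC calls were. The split was 201 to 200 with limma voom and 166 to 148 with only the 6 libraries fitted. In such bulk samples, fewer cells of a type and less RNA per cell cannot be told apart.

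**Figure D1:**
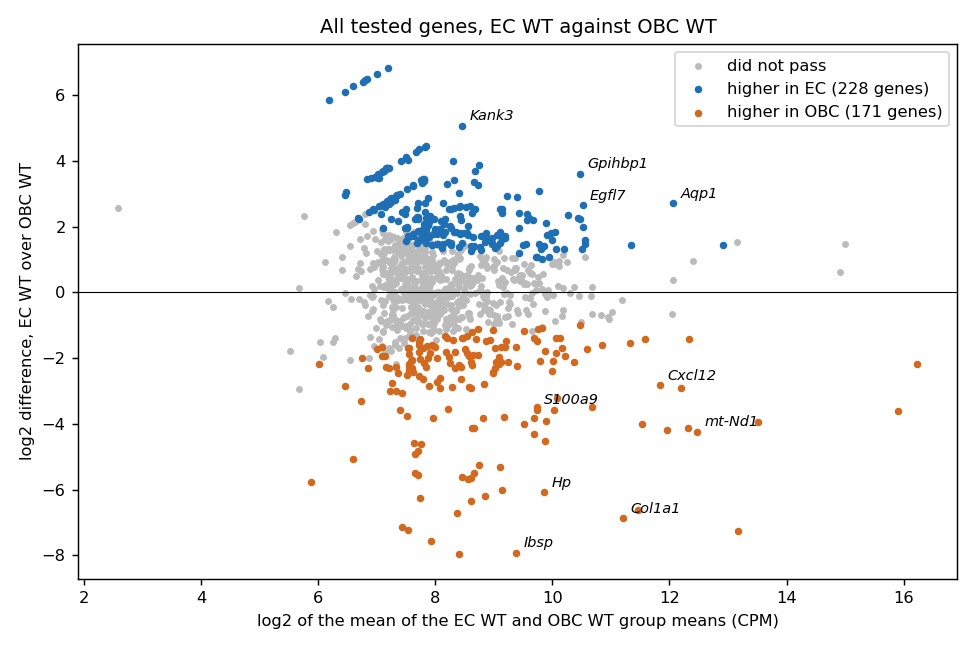
Each point is 1 of 1099 tested genes; the x axis is the log2 of the mean of the 2 group means in CPM and the y axis the fitted log2 difference of EC WT over OBC WT. Blue points are the 228 genes higher in EC, orange points the 171 higher in OBC and grey points did not pass; the diagonal rows at the upper left are genes with 0 or very few UMIs in OBC WT, whose fitted difference is not a fold, and Col1a1 lies at the lower right.

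Of the capillary lipid uptake list, Gpihbp1, Timp4 and Aqp1 were among the 15 leading EC genes. The list also holds genes with other roles, such as Timp4 and Aqp1. Gpihbp1, which carries lipoprotein lipase to the capillary lumen, stood at 3282, 2137 and 2480.1 CPM in EC WT and at 235, 211 and 182 in OBC WT. All 3 EC libraries lay far above all 3 OBC libraries, with a log2 difference of 3.61 (SE 0.50, adjusted p = 8.37e-08). Aqp1, a water channel of endothelium and red cells, had 7430.1 ± 750.4 CPM in EC WT and 1123 ± 112 in OBC WT (SD, n = 3; log2 difference 2.71, SE 0.48, adjusted p = 1.54e-05). It gave a similar level in EC WT 14, at 6749 CPM, as in EC WT 13 and 15, at 7306 and 8235. The fatty acid transporter Cd36 stood at 3157, 1932 and 1828 CPM against 565, 338 and 547 (log2 difference 2.28, adjusted p = 0.000237). Cav1, the coat protein of caveolae, was higher by 2.20 (SE 0.47, adjusted p = 0.000223). Timp4, an inhibitor of matrix metalloproteinases, was higher by 3.09 (SE 0.47, adjusted p = 7.40e-07). Of the 14 tested genes of the list, 12 were higher in EC WT and none in OBC WT, with a median log2 difference of 2.0. Fabp4, the fatty acid binding protein, was the most abundant of the list at 13505, 7401 and 12993 CPM in EC WT. It stood at 5087, 2959 and 4465 CPM in OBC WT, and its call (log2 difference 1.44, adjusted p = 0.0151) was lost without OBC WT 8 (adjusted p = 0.105) and with only the 6 libraries fitted (0.108). Without OBC WT 9 the list counted 10.

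Receptors, junction proteins and regulators that define endothelium were higher in EC WT for 26 of 34 tested members, with a median log2 difference of 2.22 (2.17 with groups at 0 set to their bound). Cdh5 stood at 2059, 1678 and 2360.2 CPM in EC WT against 283, 296 and 729 in OBC WT (log2 difference 2.35, SE 0.49, adjusted p = 0.000199). Egfl7, a secreted factor of vessel sprouts, was higher by 2.66 (SE 0.50, adjusted p = 4.23e-05). Eng, the TGF-beta co-receptor endoglin, was higher by 3.27 (SE 0.66, adjusted p = 0.000126), with 47.1, 0 and 273 CPM in the OBC WT libraries against 628 or more in each EC WT library. Podxl, Robo4 and Cd93 were higher by 2.62, 2.59 and 2.12 (adjusted p = 0.000227, 0.00051 and 0.000236). Nos3, the endothelial nitric oxide synthase, had 15, 7 and 26 UMIs in EC WT and none in OBC WT, which makes it at least 2.87-fold higher at a floor of 3 UMIs over the OBC WT group. Without EC WT 14 the list counted 28 and without OBC WT 9 it counted 23.

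Pecam1, whose protein may also have been a sort antigen, was among the 7 tested members of that list that did not pass. It stood at 1589, 1062 and 1274 CPM in EC WT and at 848, 380.4 and 1002 in OBC WT. These values did not overlap, but the log2 difference was 0.88 (SE 0.40, adjusted p = 0.0767). Emcn, a sialomucin of veins and sinusoids, had a difference of 1.32 that did not pass either (adjusted p = 0.143), with OBC WT at 0, 254 and 91.1 CPM. Erg, an ETS factor of endothelium, went the other way: it had 136, 72.4 and 67.4 CPM in EC WT and 141, 211 and 820.1 in OBC WT (log2 difference −1.85, adjusted p = 0.023). That call was lost without OBC WT 9 (adjusted p = 0.353) and without EC WT 15 (0.0702), and with plain totals (0.0558) and no filter (0.413).

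**Figure D2:**
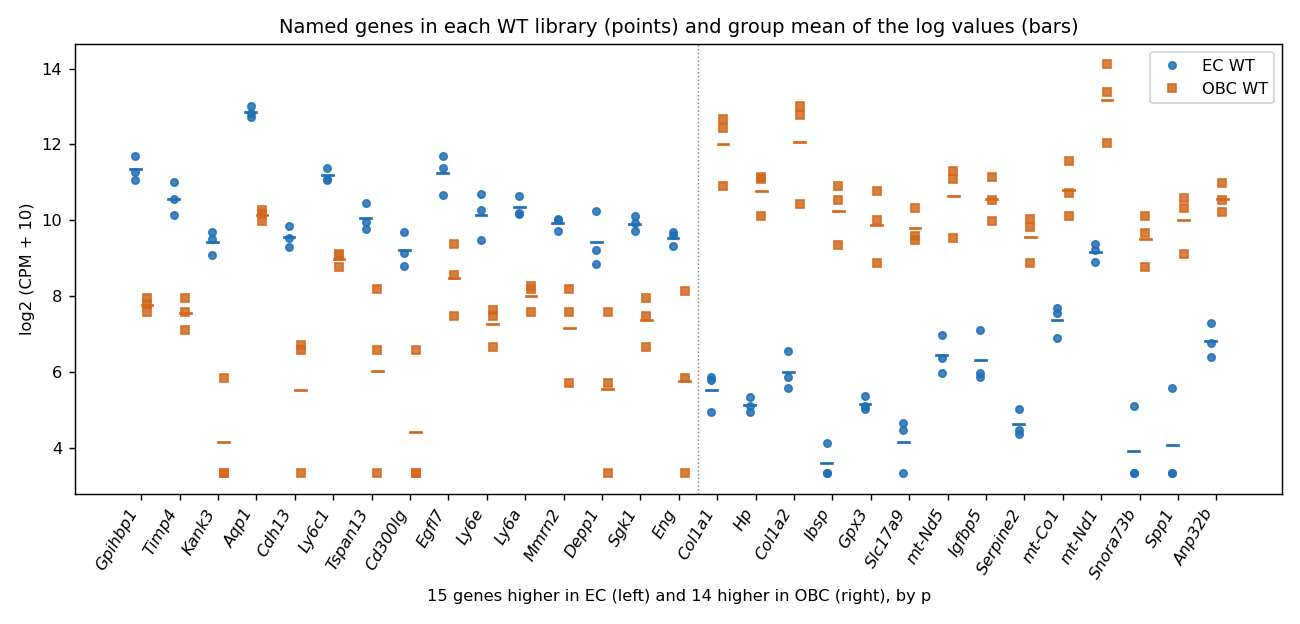
Points show log2 of CPM plus 10 in each EC WT (blue circles) and OBC WT library (orange squares) for 15 leading EC genes and 14 leading OBC genes by p, and bars the mean of the 3 log values. Points on the lowest line are libraries with 0 UMIs, and no library of one group crosses into the other for any of the 29 genes.

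Several surface proteins of the Ly6 family, glycoprotein markers of vessels and stem cells, were among the 15 leading EC genes. Ly6a (the Sca-1 antigen) had 1578, 1147 and 1169 CPM in EC WT and 283, 296 and 182 in OBC WT (log2 difference 2.28, SE 0.44, adjusted p = 5.94e-05). Sca-1 is often used to sort niche cells, so its level may have been fixed by the gate and is given as a description. Ly6c1 and Ly6e were higher by 2.25 and 2.89 (adjusted p = 2.93e-05 and 4.79e-05). Near-identical copies exist in this family, and how such reads were assigned is not given. These genes, including Ly6a with its possible gating, made up 3 of the 5 interferon response members that were higher in EC WT, of 7 tested (median log2 difference 2.01). The others were Ifitm2 and Ifitm3, which restrict entry of viruses, with log2 differences of 2.01 and 1.62 (adjusted p = 0.0084 and 0.0122). The Ifitm3 call was lost without OBC WT 8 (adjusted p = 0.129) or OBC WT 9 (0.0649).

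Vascular growth factor receptors were higher in EC WT, and the ligands Vegfa, Vegfb, Vegfc and Pgf were too sparse to test. Kdr, the main VEGF receptor, stood at 1286, 797 and 1686 CPM against 283, 127 and 364 (log2 difference 2.39, SE 0.49, adjusted p = 0.000155). Ramp2, the co-receptor for adrenomedullin, was higher by 3.02 (SE 0.62, adjusted p = 0.000158). Flt1, the decoy VEGF receptor, was higher by 1.33 (adjusted p = 0.00762, and 0.0586 without OBC WT 7). The VEGF co-receptor Nrp1 was higher by 1.41 (adjusted p = 0.00626, and 0.0585 without OBC WT 9). Vegfa itself had 0 UMIs in EC WT and 0, 1 and 0 in OBC WT. In all, 6 of 8 tested genes of VEGF, angiopoietin and apelin signalling were higher in EC WT (median log2 difference 1.82), and 3 without OBC WT 9. Of the Notch pathway, which sets arterial fate, 2 of 3 tested members were higher. The ligand Dll4 had 30, 17 and 18 UMIs in EC WT and none in OBC WT, at least 3.88-fold higher, and the receptor Notch1 had a log2 difference of 2.08 (SE 0.59, adjusted p = 0.00449). Basement membrane genes counted 4 of 8, led by Col4a1, a chain of type IV collagen, with a log2 difference of 2.0 (SE 0.47, adjusted p = 0.000682).

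Markers of vessel segments were few in the test. Of 4 tested arterial genes, Ly6a and Dll4 were higher in EC WT and Cxcl12 and Mgp in OBC WT (median log2 difference −0.27). Only these 4 of its 15 genes were tested, 2 were called on each side, and Cxcl12, Ly6a and Dll4 also belong to other lists. The arterial list thus gave no direction. Of 4 tested sinusoidal genes only Stab1, a scavenger receptor, passed (adjusted p = 0.0489), and it lost the call under limma voom (adjusted p = 0.0898), DESeq2 (0.0669) and without haemoglobin, ribosomal RNA locus and mitochondrial genes (0.0608), and without EC WT 13, EC WT 15, OBC WT 7, OBC WT 8 or OBC WT 9 (0.0537, 0.126, 0.157, 0.206 and 0.0649). EC WT 15 was high for several genes of sinusoids and leukocyte adhesion. Stab2 had 4, 0 and 37 UMIs in EC WT, Vcam1 had 3, 4 and 36, and Flt4 had 9, 3 and 34. Rgs5, a marker of pericytes, had 9, 8 and 45. EC WT 15 also held more of the immediate early genes, which are induced within minutes of cell stress or handling. Fos stood at 345, 519 and 1641 CPM in the EC WT libraries and at 801, 592 and 273 in OBC WT (log2 difference 0.52, adjusted p = 0.37). Of 23 tested immediate early genes, 4 were higher in EC WT and none in OBC WT, and without OBC WT 9 the EC count was 2. The EC share was below the 20.7% of all tested genes, so it is no trait of this list. Klf4, a factor induced by blood flow, led the 4 with 38, 34 and 217 UMIs in EC WT and 1, 2 and 0 in OBC WT. Its ratio was 17.3 (95% exact counting interval 5.84 to 84.1). The other 3 (Klf2, Rhob and Gadd45g) each lost the call without EC WT 15 (adjusted p = 0.246, 0.0759 and 0.212). Klf2 also lost it without OBC WT 8 or 9 (0.097 and 0.0992), Rhob without OBC WT 7 or 8 (0.0701 and 0.155), and Gadd45g without EC WT 13 or OBC WT 7, 8 or 9 (0.0505, 0.21, 0.0879 and 0.0879). With limma voom neither Klf2 nor Gadd45g passed (0.073 and 0.108), and Gadd45g did not pass with DESeq2 (0.0602) or without haemoglobin, ribosomal RNA locus and mitochondrial genes (0.0567).

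Bone matrix genes had the largest differences on the OBC side. Col1a1 and Col1a2, the chains of type I collagen, had 118, 155 and 21 and 176, 167 and 15 UMIs in OBC WT, against 2, 4 and 6 and 8, 4 and 5 in the deeper EC WT libraries. Their log2 differences were −6.86 (SE 0.56, adjusted p = 1.60e-13) and −6.62 (SE 0.57, adjusted p = 4.86e-12). In CPM, Col1a1 stood at 5558, 6551 and 1913 in OBC WT, so OBC WT 9 was the lowest of its group and still far above the 48.3 of the highest EC WT library. Col3a1, of type III collagen, was called with a smaller difference of −2.0 (adjusted p = 0.0262). It lost the call without EC WT 13, EC WT 15 or OBC WT 9 (adjusted p = 0.0624, 0.0511 and 0.278), with plain totals (0.0565), with a minimum count of 5 (0.0697) and with no filter (0.464). None of 5 tested collagen processing genes passed.

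Mineralisation genes were higher in OBC WT for 5 of 6 tested members (median log2 difference −6.58, and −5.32 with groups at 0 set to their bound). The list had 33 members in the deposited table, 18 of them at 0 UMIs in EC WT. Such genes could enter the test only through other libraries, so this count is partly set by the filter. Ibsp and Spp1 encode bone sialoprotein and osteopontin, acidic phosphoproteins that bind hydroxyapatite. They lie near each other and near Dmp1 on chromosome 5, at chr5:104299171-104311469, chr5:104435118-104441050 and chr5:104202613-104214102 (GRCm38, all on the plus strand). Ibsp had 31, 45 and 7 UMIs in OBC WT and 0, 0 and 1 in EC WT, a ratio of 463 (95% exact counting interval 80.9 to 18524). Spp1 had 27, 36 and 6 against 0, 0 and 5, all 5 in EC WT 15 (log2 difference −6.01, SE 0.70, adjusted p = 9.48e-10). Dmp1, which belongs to the same protein family, was not detected in OBC WT. Pth1r, the receptor for parathyroid hormone, had 10, 9 and 2 UMIs in OBC WT and none in EC WT, at least 39.1-fold higher. Cdh11, osteoblast cadherin, had 7, 12 and 3 against none, at least 40.9-fold higher. The call of Serpinf1, a collagen-binding serpin, was lost without OBC WT 7 (adjusted p = 0.575) and with no filter (0.152).

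The 250 bases before the RefSeq start of Ibsp and Spp1 are shown because these neighbours were high in OBC WT together, and that of Kdr as an EC counterpart on the same chromosome. Matches to TATAAA (the core promoter element), CCGGAA (the core of ETS sites) and TGTGGT (the core of RUNX sites), searched on both strands, are in capitals; no match overlaps another. The windows are chr5:104299037-104299286 for Ibsp (plus strand), chr5:104434861-104435110 for the first of the Spp1 starts (plus strand) and chr5:75978456-75978705 for Kdr (minus strand), all GRCm38.p6.
Ibsp: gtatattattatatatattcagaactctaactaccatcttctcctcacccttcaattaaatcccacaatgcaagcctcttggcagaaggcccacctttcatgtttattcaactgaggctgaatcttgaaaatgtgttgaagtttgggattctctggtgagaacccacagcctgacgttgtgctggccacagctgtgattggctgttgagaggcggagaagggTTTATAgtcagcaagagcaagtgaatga
Spp1: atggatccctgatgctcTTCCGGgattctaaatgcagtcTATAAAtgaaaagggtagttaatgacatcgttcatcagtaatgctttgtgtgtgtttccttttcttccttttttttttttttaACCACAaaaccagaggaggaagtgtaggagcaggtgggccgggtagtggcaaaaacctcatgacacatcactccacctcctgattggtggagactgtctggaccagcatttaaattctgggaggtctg
Kdr: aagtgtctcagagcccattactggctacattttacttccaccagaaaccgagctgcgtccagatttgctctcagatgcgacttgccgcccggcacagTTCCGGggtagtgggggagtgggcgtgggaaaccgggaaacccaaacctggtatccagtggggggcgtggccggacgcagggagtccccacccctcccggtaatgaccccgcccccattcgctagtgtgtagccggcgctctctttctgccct
The Ibsp window held 1 match, to the TATA box on the minus strand, which begins 28 bases before the start. The Spp1 window held 3 matches, 1 to each motif, at 233, 211 and 128 bases before the start in the order printed, and the Kdr window held 1 match to the ETS core 153 bases before it. The second Spp1 window and the Cxcl12 window held none. A RUNX core match was in 14% of all 32851 windows, in 10% of the 130 windows of genes higher in OBC WT in 10.1% of the 228 windows of genes higher in EC WT and in 9.8% of those of all tested genes. An ETS core match was in 12% of all windows, in 19% of those of tested genes, in 16.7% on the EC side and in 14.6% on the OBC side. A TATA box match was in 12.4% of all windows, 10.8% of those of tested genes, 9.6% on the EC side and 12.3% on the OBC side. A match describes the letters only.

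Cxcl12 was the most abundant tested niche factor. It stood at 774, 918 and 1049 CPM in EC WT and at 7112, 7819 and 4374 in OBC WT, with no overlap (log2 difference −2.82, SE 0.42, adjusted p = 4.19e-07). Kitl, the stem cell factor that both populations are known to supply, stood at 439, 350.1 and 329.7 CPM against 377, 423 and 273, and its difference of 0.01 had an SE of 0.47 (adjusted p = 0.996). Of 5 tested niche factors, Cxcl12 and Spp1 were higher in OBC WT and none in EC WT. Cxcl12 is also a defining gene of adipocytic stromal cells, the CXCL12-abundant reticular cells of the marrow, and 6 of 11 tested members of that list were higher in OBC WT (median log2 difference −1.93). Adipoq, the hormone adiponectin, had 13, 8 and 3 UMIs in OBC WT and 0, 1 and 3 in EC WT (log2 difference −4.81, SE 0.98, adjusted p = 0.000135). Lepr, the leptin receptor that marks these cells, had 10, 8 and 0 UMIs in OBC WT and none in EC WT, too few for the test. Gas6, a ligand of TAM receptors, was higher in OBC WT by a log2 difference of −1.93 (SE 0.39, adjusted p = 0.000126). The summed level of the list ran from 9841 to 16441 CPM in OBC WT and from 3308 to 4188 in EC WT, and its part in the OBC values of Cxcl12 was not tested.

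Proteoglycans, matrix glycoproteins and complement genes of fibroblast-like mesenchyme were mostly on the OBC side. Tnc, the matrix protein tenascin C, stood at 1366, 676 and 182 CPM in OBC WT and at 0, 24.1 and 15 in EC WT (log2 difference −5.68, SE 0.79, adjusted p = 1.20e-07). The small proteoglycans Bgn and Dcn were higher in OBC WT by −2.60 and −2.87 (adjusted p = 0.000779 and 0.000806). Fbln2, a fibulin of vessel walls, went the other way with 29, 30 and 76 UMIs in EC WT and 2, 0 and 0 in OBC WT, a ratio of 12.1 (95% exact counting interval 3.28 to 101). Of 9 tested genes in the matrix list, 5 were higher in OBC WT and 2 in EC WT. In the Wnt5a-haploinsufficient libraries 1 was called on each side (median log2 difference −0.18). Complement genes C4b and C3 were higher in OBC WT by −5.65 and −3.29 (adjusted p = 7.75e-08 and 0.00195), and they were among the 6 of 11 tested fibroblast-like genes on that side. Ly6a and Cd34 of the same list were called higher in EC WT. Of the defining fibroblast markers other than Dcn, Pi16 had 0 UMIs in all OBC WT libraries, Dpt had 1, 1 and 0, Clec3b had 0, 3 and 1 and Igfbp6 had 5, 2 and 0. Igfbp6 was called higher in OBC WT (log2 difference −2.18, adjusted p = 0.0404), but its groups overlapped and the call was lost without EC WT 13 or 14 or OBC WT 7 or 8 (adjusted p = 0.0564, 0.0914, 0.54 and 0.0574). It was also lost with RLE scaling (0.0566), plain totals (0.0803), a minimum count of 5 (0.0695) and no filter (0.434).

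Genes of secreted and transport proteins were also among the leading OBC genes. Hp, the haemoglobin-binding plasma protein haptoglobin, had 46, 53 and 12 UMIs against 2, 2 and 4 (log2 difference −6.07, SE 0.54, adjusted p = 4.88e-13). The antioxidant enzyme Gpx3 and the growth factor binding protein Igfbp5 were higher in OBC WT by −5.31 and −4.29 (adjusted p = 1.44e-10 and 3.99e-10). Slc17a9, the transporter that loads ATP into vesicles, had 15, 18 and 14 UMIs against 0, 1 and 2, a ratio of 87.5 (95% exact counting interval 28.2 to 439). Snora73b, a small nucleolar RNA inside Snhg3, gave 112 (29 to 954), and reads of the genes that overlap it may be counted with it.

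Some OBC genes belong to muscle, and were picked after their values were seen. Ryr1 and Trdn, of the calcium release unit of skeletal muscle, had 3, 15 and 5 and 5, 12 and 5 UMIs against 0, 0 and 2 and 1, 0 and 1, with ratios of 64.2 (95% exact counting interval 15.9 to 562) and 61.4 (15.1 to 539). Of other muscle genes, Ckm, muscle creatine kinase, had no UMI in OBC WT and 1 in EC WT. Acta1, skeletal actin, had 2, 3 and 1 UMIs in OBC WT and 1, 1 and 3 in EC WT, too few for the test. In CPM these were 94.2, 127 and 91.1 against 10.5, 12.1 and 22.5, higher in OBC WT with no overlap, though each OBC WT value rests on at most 3 UMIs.

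Neutrophil granule genes were on the OBC side for 5 of 5 tested members (median log2 difference −3.57). Only these 5 of the 18 listed genes had enough UMIs to test, and members sparse in EC could enter only through other libraries. S100a9, a subunit of calprotectin, stood at 848, 1775 and 2096 CPM in OBC WT and at 115, 169 and 105 in EC WT (log2 difference −3.57, SE 0.45, adjusted p = 8.19e-09). Ngp, neutrophilic granule protein, had a log2 difference of −4.13 (SE 0.52, adjusted p = 7.53e-09). The 18 genes of the class made up 0.287%, 0.497% and 0.527% of UMIs in OBC WT and 0.0348%, 0.042% and 0.0568% in EC WT. Itgam, the integrin CD11b of myeloid cells, had 14, 20 and 11 UMIs in OBC WT and 0, 3 and 3 in EC WT (log2 difference −5.24, SE 0.74, adjusted p = 1.75e-07), a gene chosen after its values were seen. Its level did not run with the granule genes. Itgam averaged 836 CPM in OBC WT and 365 in OBC Wnt5a, where the granule class averaged 0.437% and 0.791% of UMIs. In MSC WT, Itgam had 0 UMIs in each library, while Ngp and S100a9 averaged 149 and 342 CPM. The source of Itgam was not tested. Of macrophage genes, Csf1r, C1qa and C1qb were at 0 in all 6 libraries and Cd68 had 1 UMI in each group. Lyz2, shared by macrophages and neutrophils, had 4, 6 and 0 UMIs in OBC WT and 10, 3 and 3 in EC WT, with overlapping CPM values. Erythroid genes passed in neither direction among 9 tested (median −0.13). Without EC WT 14, the library rich in haemoglobin, 5 of the 9 were higher in OBC WT and the median was −1.94. None of 4 tested B and plasma cell genes passed, and T and NK cell genes had at most 1 UMI in any of the 6 libraries. What part these blood cell transcripts have in the other OBC values was not tested.

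**Figure D3:**
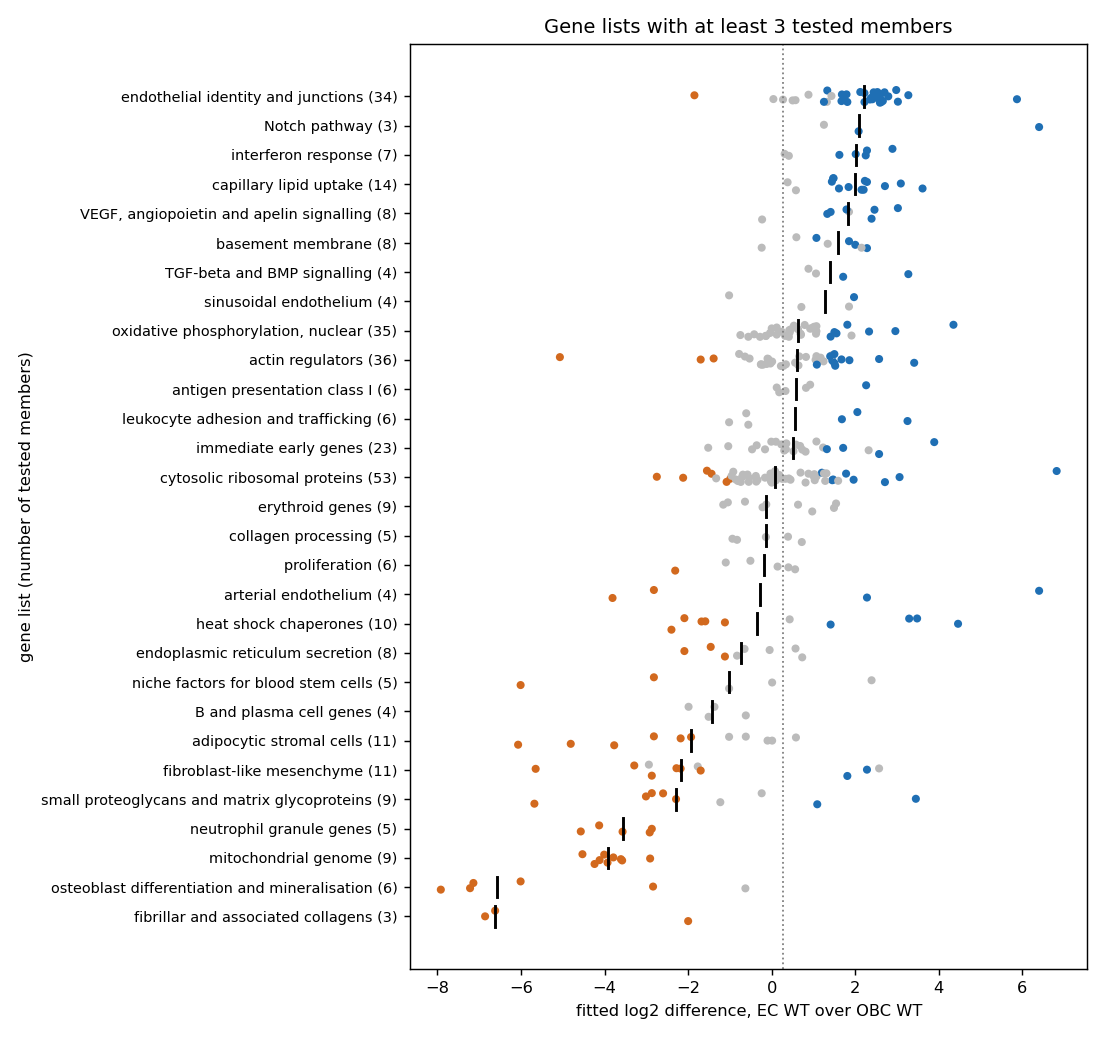
Each point is a tested member of a gene list (rows, with the number tested), placed by its fitted log2 difference of EC WT over OBC WT; blue and orange members passed on the EC and OBC side and grey ones did not. Black bars are list medians and the dotted line the 0.26 of all tested genes; endothelial, lipid uptake and VEGF lists lie to the right and collagen, mineralisation, mitochondrial and neutrophil lists to the left.

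Transcripts of the mitochondrial genome set the populations apart. All 9 tested members were higher in OBC WT (median log2 difference −3.93). mt-Nd1, a subunit of complex I, stood at 585, 471 and 659 CPM in EC WT and at 10597, 17709 and 4191 in OBC WT (log2 difference −4.24, SE 0.48, adjusted p = 6.11e-10). mt-Co1, of complex IV, was higher by −3.58 (SE 0.40, adjusted p = 5.76e-10). As a class they made up 17.1%, 17.1% and 12% of UMIs in OBC WT and 1.84%, 0.95% and 2.26% in EC WT, or 15.4 ± 2.96% against 1.68 ± 0.669% (SD, n = 3). The groups did not overlap, and an exact two-sided permutation test gave p = 0.1, the smallest that 3 against 3 libraries allow (0.2 adjusted over 8 classes). Most UMIs of the class were mitochondrial ribosomal RNA, not messenger RNA. Of its 4470, 5078 and 1272 UMIs in OBC WT, mt-Rnr2 had 2796, 2884 and 938 and mt-Rnr1 had 500, 754 and 116. A ribosomal RNA locus, read as Gm42418 and Gm26917, was also higher in OBC WT, at 9.82%, 11.6% and 11.7% against 2.9%, 1.83% and 4.19% in EC WT (exact p = 0.1). In the Wnt5a-haploinsufficient libraries this locus was at 13.1%, 11.9% and 8.73% in OBC. There it was at 4.31%, 5.77% and 11.3% in EC, so those groups overlapped. The part of these classes in the other OBC values was not tested.

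Nuclear genes of oxidative phosphorylation did not follow the mitochondrial genome. Of 35 tested, 7 were higher in EC WT and none in OBC WT (median log2 difference 0.63). The EC share was near the 20.7% of all tested genes, so it is no trait of this list. In the Wnt5a-haploinsufficient libraries none passed on either side (median log2 difference −0.29). Ndufa7, of complex I, had 48, 25 and 57 UMIs in EC WT and 0, 1 and 0 in OBC WT, a ratio of 23.3 (95% exact counting interval 4.11 to 927). Cox7a2, of complex IV, was higher by 2.33 (SE 0.61, adjusted p = 0.00245), a call lost without OBC WT 8 (adjusted p = 0.0608).

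**Figure D4:**
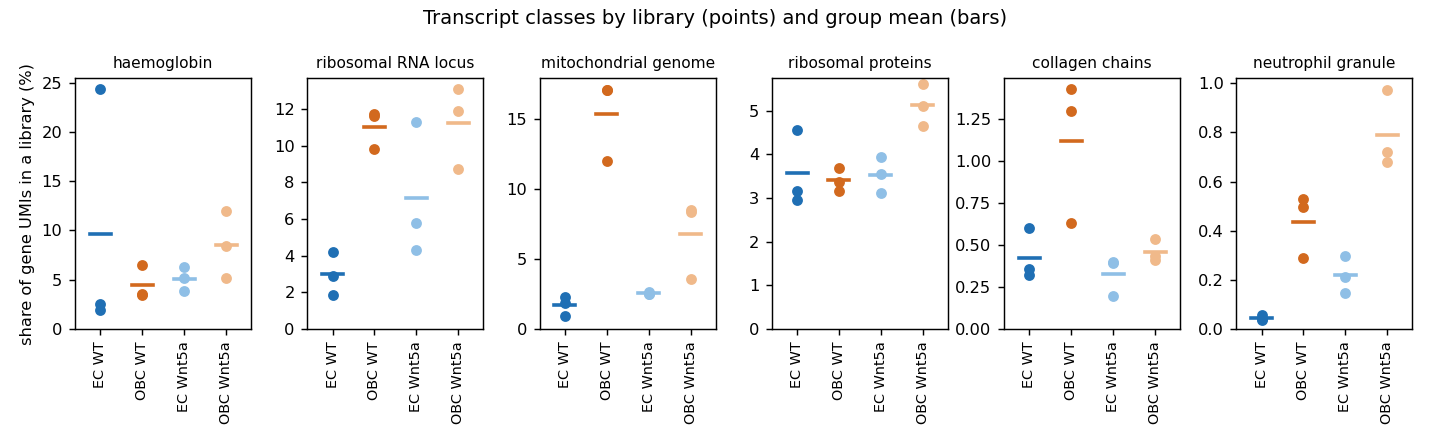
Each panel gives the share of a library's gene UMIs (percent) taken by 1 class of transcripts in the EC WT, OBC WT, EC Wnt5a and OBC Wnt5a libraries; points are libraries and bars group means. EC WT 14 stands alone at 24.3% haemoglobin, and the mitochondrial share lies at 12% to 17.1% in OBC WT, above the 0.95% to 2.26% of EC WT.

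Chaperone genes were called on both sides. The HSP90 genes were higher in OBC WT: Hsp90b1 of the endoplasmic reticulum stood at 1319, 1522 and 1458 CPM there and at 324, 241 and 427 in EC WT (log2 difference −2.09, SE 0.37, adjusted p = 1.52e-05). The cytosolic Hsp90aa1 and Hsp90ab1 had log2 differences of −2.40 and −1.59 (adjusted p = 3.18e-05 and 0.00173; 0.185 for Hsp90ab1 with no filter). The stress-inducible Hspa1a and Hspb1 went the other way, with Hspa1a at 18, 41 and 87 UMIs in EC WT and 1, 0 and 0 in OBC WT, a ratio of 26.1 (95% exact counting interval 4.62 to 1039.7), and Hspb1 at 45, 37 and 94 against 2, 1 and 0. Hspa1a and Hspa1b are near-identical copies between which reads may be split. Of 10 tested members, 4 were higher in EC WT and 5 in OBC WT, and HSP70 genes were on both sides. Hspa8, the constitutive cytosolic HSP70, was higher in EC WT by 1.41 (adjusted p = 0.0199), a call lost without OBC WT 8 or 9 (0.0688 and 0.106). Hspa5, the HSP70 of the endoplasmic reticulum, had a log2 difference of −1.12 (adjusted p = 0.029) and lost the call without EC WT 13, 14 or 15 or OBC WT 8 (0.0863, 0.0526, 0.0594 and 0.316) and under 4 other settings (0.0563 to 0.745). The co-chaperone St13 had −1.68 (adjusted p = 0.0143) and lost the call without OBC WT 7 or 8 (0.0701 and 0.127), with plain totals (0.0565) and with no filter (0.451). Hspa1b lost its call without OBC WT 7 or 8 (0.0752 and 0.104).

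Actin regulators were higher in EC WT for 10 of 36 tested members and in OBC WT for 3 (median log2 difference 0.60). Of all tested genes, 20.7% and 15.6% were called on these sides. Without OBC WT 9 the actin counts were 7 and 3. Pdlim1, an adaptor of stress fibres, had a ratio of 11.7 (95% exact counting interval 3.18 to 97.9), and Tmsb4x, which binds actin monomers, was higher by 1.45 (SE 0.41, adjusted p = 0.00447). Coro1a, the coronin of blood cells, had 1, 8 and 2 UMIs in OBC WT and 1, 0 and 0 in EC WT. Cytosolic ribosomal protein genes counted 8 higher in EC WT and 6 in OBC WT of 53 tested (median 0.07). Without EC WT 14 the counts were 5 and 12, and without OBC WT 9 they were 5 and 6. Rpl35, of the large subunit, was higher in EC WT by 1.78 (SE 0.47, adjusted p = 0.00253; 0.0531 without OBC WT 8), while Rpsa, which also serves as a laminin receptor, was higher in OBC WT by −2.12 (SE 0.46, adjusted p = 0.000255). In WNT signalling only Ctnnb1, beta-catenin, had enough UMIs to test (log2 difference 0.19, adjusted p = 0.783). Wnt5a itself was not analysed here.

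The MSC WT libraries place both populations on a common scale, and all comparisons with them share libraries with the one above. Against MSC WT, EC WT had 0 genes higher and 22 lower (2.0%) of 1099 tested, while OBC WT had 133 higher (12.1%) and 178 lower (16.2%). Gpihbp1 averaged 2711 ± 337 CPM in MSC WT, close to the 2633 ± 588 of EC WT and far above the 209.7 ± 26.7 of OBC WT (SD, n = 3). Col1a1 averaged 355 ± 54.5 CPM in MSC WT, 38.1 ± 14.9 in EC WT and 4674 ± 2442 in OBC WT. Dcn stood at 1580.1 CPM in MSC WT, above the 676 of OBC WT and the 86.9 of EC WT. Cdh5 averaged 1681 ± 181 CPM in MSC WT and 2033 ± 342 in EC WT. The libraries labelled MSC thus held endothelial transcripts near the EC level, and the cause was not tested.

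The same comparison in the Wnt5a-haploinsufficient libraries uses 6 other libraries and the same fit. There, 144 genes were higher in EC (13.1%) and 144 in OBC (13.1%). Of the 228 genes higher in EC WT, 221 had the same sign and 107 were called the same way. Of the 171 higher in OBC WT, 162 had the same sign and 108 were called, and none was called the other way on either side. Over all 1099 genes, 906 (82.4%) had the same sign. The median difference of the 228 genes went from 2.23 in WT to 1.67, and that of the 171 from −2.26 to −1.77. These genes were selected by their WT call, and such selection alone tends to make a median smaller in other libraries, so no difference between genotypes is read from these medians. Across the 1099 genes, which are not independent replicates, the log2 differences of the genotypes had Pearson's r of 0.77, a description with no test.

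Of the leading genes in WT, Kank3, Ly6a, Sgk1 and mt-Nd5 did not pass in the Wnt5a genotype (adjusted p = 0.0774, 0.099, 0.0545 and 0.444). Examples called in both genotypes follow. Col1a1 had log2 differences of −6.86 in WT and −5.12 in the Wnt5a genotype (adjusted p = 8.80e-08), Gpihbp1 3.61 and 2.20 (0.000419), and Kdr 2.39 and 2.01 (0.000642). The difference between the genotypes itself was tested as an interaction, and 4 genes passed (0.364%), with 95 at an unadjusted p under 0.05. All 4 were mitochondrial or mitochondrial-like: mt-Nd3, mt-Nd4, mt-Nd5 and Gm13340, an annotated pseudogene on chromosome 2. mt-Nd3 had 34, 30 and 4 UMIs in OBC WT and 2, 2 and 1 in OBC Wnt5a, and 7, 7 and 11 in EC WT against 5, 27 and 6 in EC Wnt5a. The mitochondrial share was 8.39%, 8.47% and 3.57% in OBC Wnt5a, below each OBC WT library, and was 2.51%, 2.65% and 2.48% in EC Wnt5a. For Ndufa7, Cox7a2 and Rpl35, which were called in WT and not in the Wnt5a genotype, the interaction did not pass (adjusted p = 0.432, 0.213 and 0.492). None of the 4 interaction genes passed without EC Wnt5a 17 (adjusted p = 0.0562 for mt-Nd3, 0.274 for mt-Nd4, 0.581 for mt-Nd5 and 0.0832 for Gm13340).

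**Figure D5:**
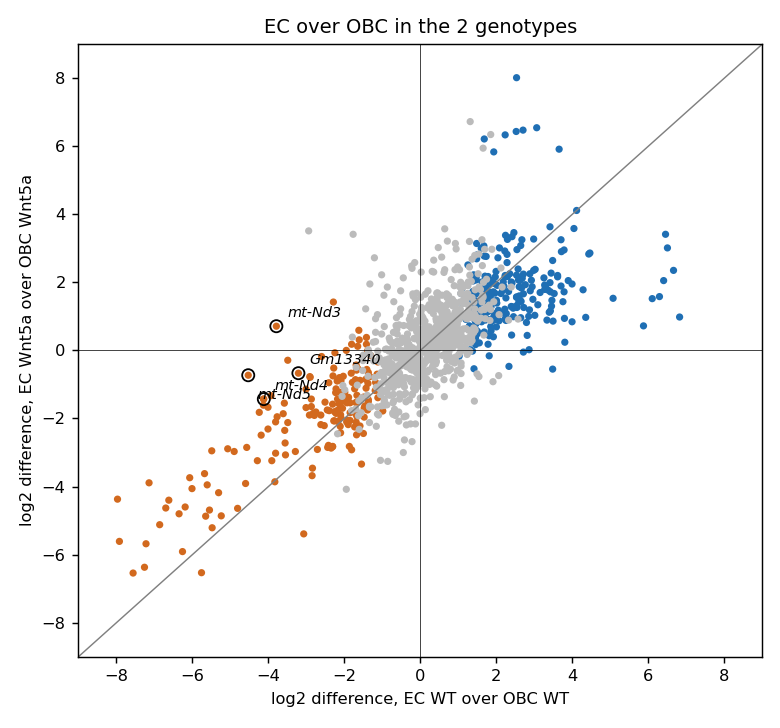
Each point is 1 of 1099 tested genes, with the log2 difference of EC over OBC in WT on the x axis and in the Wnt5a genotype on the y axis; blue and orange mark genes called in WT on the EC and OBC side, and the line is equality. Circles mark the 4 genes whose difference between genotypes passed, all on the left and above the line.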

How the data were processed

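The deposited niche table holds UMI counts per Ensembl gene, whole numbers whose totals differ between libraries. Per the submitters' processing notes, STAR and featureCounts were used on mm10 (GRCm38), with no versions. The sources used here do not give UMI collapsing, the annotation release or the strand setting. The table has 18194 genes, 2264 of them at 0 in every niche library. The 28 spike-in entries (48 UMIs in all) stayed out of totals and no sample column was left out. Symbols and GRCm38 positions (GENCODE M21) were found for 17973 IDs. Of 140 genes named or used as markers, 37 overlap another gene of the table, and without strand their reads cannot be told apart.

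All 18 niche libraries entered 1 fit in edgeR 4.0.16 (R 4.3.3) with 6 group means: TMM scaling, filterByExpr by group (minimum count 10, total 15), robust quasi-likelihood test, Benjamini-Hochberg over 1099 genes, called under 0.05. The common biological coefficient of variation was 0.319. The SE is the log2 difference over the square root of F. Every adjusted p is from this test unless another tool is named. A negative log2 difference means higher in OBC. Where a group had 0 UMIs a bound at 3 UMIs over the group is given, and with 1 to 3 UMIs a ratio with its exact 95% interval, both for counting error only. Alternatives used DESeq2 1.42.0 and limma 3.58.1 (voom), other scaling and filters, and left out libraries.

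Named were the 15 genes per side with the smallest p and an absolute log2 difference over 1, without predicted genes and pseudogenes, up to 5 called members of each of 39 lists, and cell type markers; the text gives some of the list members. Podxl, Robo4, Cd93, Nos3, Fabp4, Erg, Stab2, Flt4, Fos, Vcam1, Rgs5, Vegfa, Kitl, Lepr, Ctnnb1, Hspa1b, Hspa8, St13, Gm13340, Gm42418, Ryr1, Trdn, Ckm, Acta1 and Itgam fall outside this rule or did not pass, and were chosen after their values were seen. Some genes the rule names are not reported here. Members, lists and rules were chosen with earlier results of these data known. Promoter sequences are from RefSeq (GRCm38.p6), matched by symbol for 753 of the tested genes.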

Additional observations from a re-analysis of the deposited data

Results flagged for a closer look

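In 4 genes the difference of EC over OBC was not the same in the 2 genotypes, by the interaction term of edgeR's quasi-likelihood test (Wnt5a genotype minus WT, on the log2 scale). It was 4.50 for mt-Nd3 (SE 0.81, adjusted p = 0.00116), 3.80 for mt-Nd5 (SE 0.81, adjusted p = 0.0103), 2.68 for mt-Nd4 (SE 0.64, adjusted p = 0.0452) and 2.54 for Gm13340 (SE 0.63, adjusted p = 0.048). mt-Nd5 had 46, 59 and 8 UMIs in OBC WT and 4, 4 and 1 in OBC Wnt5a, and mt-Nd4 had 287, 243 and 56 against 64, 44 and 18. Gm13340 had 61, 36 and 16 against 12, 13 and 3. Without EC Wnt5a 17, the deepest library of its group, none of the 4 passed (adjusted p = 0.0562 for mt-Nd3, 0.581 for mt-Nd5, 0.274 for mt-Nd4 and 0.0832 for Gm13340). mt-Nd3 passed in every other setting run, limma voom included (adjusted p = 0.0395); the setting that removes mitochondrial genes gives it no value. mt-Nd5 also failed with limma voom (0.0747) and without OBC Wnt5a 12 (0.0744). mt-Nd4 also failed without EC WT 13 or 14, OBC WT 7, EC Wnt5a 18 and OBC Wnt5a 11 or 12 (0.07, 0.0654, 0.103, 0.117, 0.053 and 0.175), with limma voom (0.0747) and with only the libraries compared (0.0926). Gm13340 also failed without EC WT 13 or 14, OBC WT 7, EC Wnt5a 18 and OBC Wnt5a 10 or 12 (0.07, 0.088, 0.254, 0.405, 0.0516 and 0.276). It failed too with limma voom (0.0747), no filter (0.165), only the libraries compared (0.0926), plain totals (0.0666) and without haemoglobin, ribosomal RNA locus and mitochondrial genes (0.107).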

How the results depend on the processing

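No sign changed among the 399 called genes under any setting run. The 228 genes higher in EC became 372 with a minimum count of 5 and 374 with no filter, and 132 to 258 without 1 library (lowest without OBC WT 8). The 171 higher in OBC ranged from 160 to 222 without 1 library. Calls were 50.1% EC-sided with limma voom, 51.4% without haemoglobin, ribosomal RNA locus and mitochondrial genes, 52.9% with only the libraries compared, 57.1% under DESeq2, 62.9% with a minimum count of 5, 61.8% with RLE scaling, 68.6% with plain totals and 69.6% with no filter, and these last 3 moved the median of all genes by 0.12, 0.31 and 0.62. Of 119 named genes, 22 lost the call under at least 1 other setting and 36 without 1 library. The 288 calls in the Wnt5a genotype ranged from 122 (without OBC Wnt5a 11) to 325, with 188 without OBC Wnt5a 10 and 189 without EC Wnt5a 17. The 4 genes that differed between genotypes became 11 with DESeq2, 1 with limma voom, 10 with a minimum count of 5, 2 with only the libraries compared, 0 without haemoglobin, ribosomal RNA locus and mitochondrial genes (edgeR, 82 at an unadjusted p under 0.05), and 0 (without EC Wnt5a 17, 94 unadjusted) to 10 without 1 library. Among the UMI shares, the EC minus OBC difference in percentage points was 5.12 for haemoglobin and ran from −2.23 (without EC WT 14) to 8.96 without 1 library. For ribosomal proteins it was 0.157, from −0.341 (without EC WT 14) to 0.459. For the spike-ins it was 0.000341, from −0.0027 (without OBC WT 9) to 0.00305, and −5.64e-05 without EC WT 13. No paired analysis was possible because the groups compared share no replicate number. Where no value shows otherwise, the cause was not tested. Depth limits the OBC side: 1 library has 10635 UMIs.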
